A study of Homo sapiens with 8 samples.

Results

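The SIN3 and HDAC complex was described through 10 genes, SIN3A, SIN3B, HDAC1, HDAC2, SAP30, SAP130, SUDS3, ARID4A, ARID4B and ING2, out of 22259 genes with junctions assigned to them. They were taken by name, and each was measured by the reads that cross its splice junctions, matched to the introns and splice sites of the GENCODE annotation, release 29. The cells were K562, a human erythroleukaemia line, in which SF3B1 was either K700E or wild type (WT). The 4 groups of 2 libraries compared were K700E at day 4, WT at day 4, K700E at day 8 and WT at day 8, and the labels give all of them doxycycline at 1 ug/ml, which induced the modified allele. The labels do not say which promoter drives the allele, whether a line is 1 clone, or whether replicates were separate cultures, so p-values measure the spread between these libraries, which may be technical. The study's design text asks for differences of expression and splicing between the genotypes.

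SIN3 complexes are transcriptional co-repressors. SIN3A and SIN3B are alternative scaffolds that DNA-binding repressors contact through paired amphipathic helix domains, and HDAC1 and HDAC2 are the lysine deacetylases held on them. SAP30, SAP130 and SUDS3 are structural subunits, ARID4A and ARID4B bind the retinoblastoma protein and carry ARID and Tudor domains, and ING2 reads methylated lysine 4 of histone H3 with a PHD finger. SF3B1, a subunit of the U2 snRNP, contacts the branch point, and K700E is known for the use of cryptic acceptors (3′ splice sites) a short distance upstream of the normal one.

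The libraries held 49338071 to 77750812 uniquely mapped junction reads. Splicing at 21 known target acceptors separated the genotypes at day 4, where the median use of the cryptic site was 22.3% and 20.3% in K700E libraries and 1.44% and 2.45% in WT libraries. At day 8 it did not follow the labels, with 2.96% and 17.6% in the libraries labelled K700E and 0% and 21.6% in those labelled WT. Day 8 values are given under the labels as deposited, with every library kept in its group. The alignment logs date both day 8 WT libraries to one month, both day 8 K700E libraries to another and all day 4 libraries to another again, so alignment run cannot be told apart from genotype at day 8 or from day. The 2 day 8 WT libraries also listed the fewest junctions, and junctions with a single read made up 3.55% and 4.94% of their unannotated ones, where the other 6 libraries had 23.7% to 34.9%. A label calls the cells epithelial. CDH1, the epithelial cadherin, was at most 0.04 CPM (junction counts scaled to library size by TMM factors), while the erythroid factor GATA1 was at 125 to 225 CPM.

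HDAC2 and HDAC1 were the most abundant of the 10 genes. On the scale of CPM per major junction, which allows genes of different size to be set side by side, HDAC2 averaged 29.9 ± 7.99 and HDAC1 19.7 ± 2.27 (SD, n = 8 libraries). SIN3A followed at 8.42 ± 1.73, then SUDS3 at 6.75 ± 1.14, SAP30 at 6.04 ± 2.57, ARID4B at 5.79 ± 1.74 and SAP130 at 5.06 ± 0.729. Those 5 neighbours overlapped in range. SIN3B at 2.95 ± 0.687 and ARID4A at 2.45 ± 0.817 also overlapped, and ING2, which had 1 major junction, was lowest at 1.34 ± 0.781. The SIN3A scaffold exceeded SIN3B 1.44-fold to 4.12-fold in each of the 8 libraries by this measure.

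No member passed the test for a genotype difference at day 4. The edgeR quasi-likelihood test called 0 of the 10 genes, against 81 of 14424 genes tested (0.562%) after Benjamini-Hochberg adjustment, with a threshold of 0.05. Before adjustment 1 member was under 0.05, against 21.1% of all genes. DESeq2 called 0 members too, but 1667 of 13864 genes (12%). The median log2 change of the 10 was -0.11, with 8 negative and 2 positive, and the median of all genes tested was 0.02. In 3 members the day 4 groups did not overlap, SAP30 and ARID4A with lower and SAP130 with higher values in K700E, where 54.5% of all genes had groups that did not overlap (28.1% with lower and 26.3% with higher values in K700E).

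SAP30, a bridging subunit of the complex, had the largest difference among the members. It stood at 13.4 and 21.4 CPM in K700E libraries and 27.0 and 32.9 CPM in WT libraries at day 4. Both K700E libraries lay below both WT libraries, but they differed from each other by more than the WT pair did. The log2 difference was -0.76 (SE 0.28), with an unadjusted p of 0.0343 and an adjusted p of 0.202 by edgeR. With no filter on low counts it was -0.77 with an adjusted p of 0.0320 by edgeR, where 9.39% of all genes were called. Without K700E replicate 2 it was -1.15 with an adjusted p of 0.00416 by edgeR, where 8.97% of all genes were called, but that fit holds 1 K700E library, takes its spread from the WT pair alone and assumes that the lone library varies alike. Over all alternatives the adjusted p ran from 0.00416 to 0.611. At day 8 the values were 12 and 10.3 CPM in the libraries labelled K700E and 16.1 and 14.7 CPM in those labelled WT, again without overlap, and the log2 difference was -0.51 (SE 0.28, adjusted p 1.00 by edgeR). Over both days it was -0.62 (SE 0.19, unadjusted p 0.0136, adjusted p 0.541 by edgeR), while 9.15% of all genes had an unadjusted p under 0.05 in that fit.

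**Figure D1:**
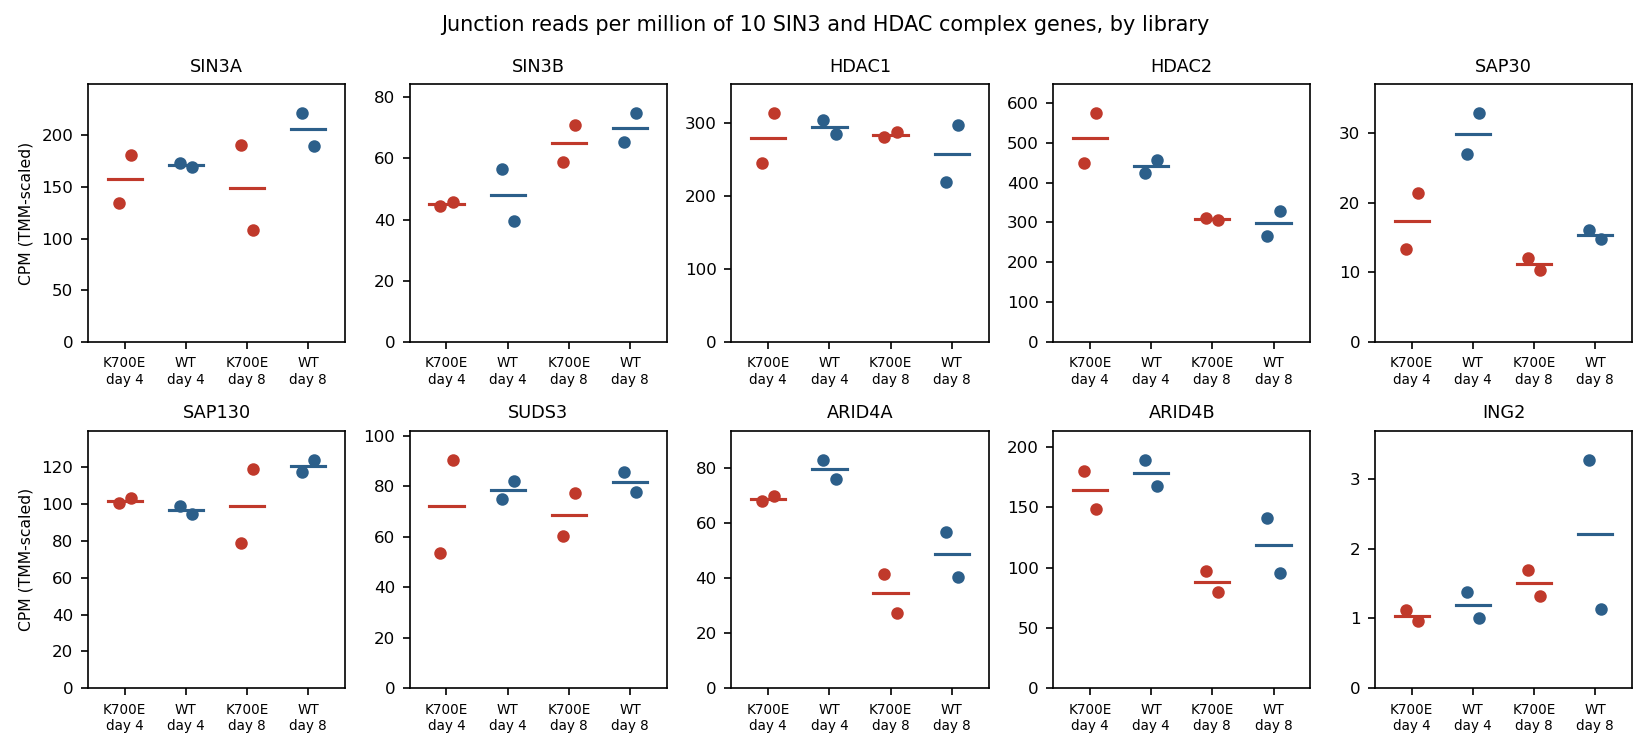
Junction reads in CPM (TMM-scaled, vertical axes from 0, a separate scale per gene) of the 10 genes; points are the 2 libraries of a group and lines their mean, K700E in red and WT in blue. The SAP30 points of K700E lie below those of WT at each day, and HDAC2, ARID4A and ARID4B sit lower at day 8 than at day 4 in both genotypes.

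The scaffolds showed no genotype difference beyond their spread. SIN3A had 134 and 181 CPM in K700E libraries and 174 and 169 CPM in WT libraries at day 4, a log2 difference of -0.10 (SE 0.18, adjusted p 0.781 by edgeR). SIN3B had 44.5 and 45.8 CPM in K700E libraries and 56.6 and 39.5 CPM in WT libraries, and its log2 difference was -0.07 (SE 0.21). In both genes the WT and K700E ranges overlapped.

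The deacetylases were also close between genotypes. HDAC1 stood at 246 and 314 CPM in K700E libraries and 305 and 285 CPM in WT libraries at day 4, with a log2 difference of -0.06 (SE 0.16). HDAC2 stood at 450 and 575 CPM in K700E libraries and 424 and 458 CPM in WT libraries, and the log2 difference was 0.23 (SE 0.16, adjusted p 0.451 by edgeR). The lower K700E value of HDAC2 fell inside the WT range. Relative to HDAC1 per major junction, HDAC2 was 1.99-fold in each K700E library, against 1.52-fold and 1.75-fold in WT.

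Among the other subunits, ARID4A had 67.9 and 69.9 CPM in K700E libraries and 83.1 and 75.9 CPM in WT libraries at day 4. These did not overlap, with a log2 difference of -0.19 (SE 0.13, adjusted p 0.451 by edgeR). Its paralog ARID4B had 180 and 148 CPM in K700E libraries and 190 and 168 CPM in WT libraries, which did overlap. SAP130, a larger SIN3-associated subunit, had 100.4 and 103 CPM in K700E libraries and 99.0 and 94.8 CPM in WT libraries. SUDS3, needed for deacetylase activity of the complex, was at 53.7 and 90.6 CPM in K700E libraries and 75.1 and 82.1 CPM in WT libraries, so the K700E pair enclosed the WT pair. ING2 was near the lower end of what was measured, with 1.11 and 0.97 CPM in K700E libraries and 1.38 and 1.01 CPM in WT libraries.

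At day 8, 0 of the 10 members and 0 of 14370 genes (0.0%) passed edgeR's adjusted threshold as labelled; 0 members and 2.89% of all genes had an unadjusted p under 0.05, and DESeq2 called 28 genes (0.216%) and no member. SAP30 and SUDS3 had groups that did not overlap, both with lower values in K700E, where 32.1% of all genes did not overlap, 12.7% of all genes in that direction and 19.3% in the other. SUDS3 had 60.2 and 77.3 CPM in the libraries labelled K700E and 85.8 and 77.7 CPM in those labelled WT. The biological coefficient of variation was 0.527 at day 8 and 0.284 at day 4. A genotype-by-day interaction was called for 0 of 15366 genes by edgeR (1418, or 9.23%, at an unadjusted p under 0.05), with no member in either count.

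**Figure D2:**
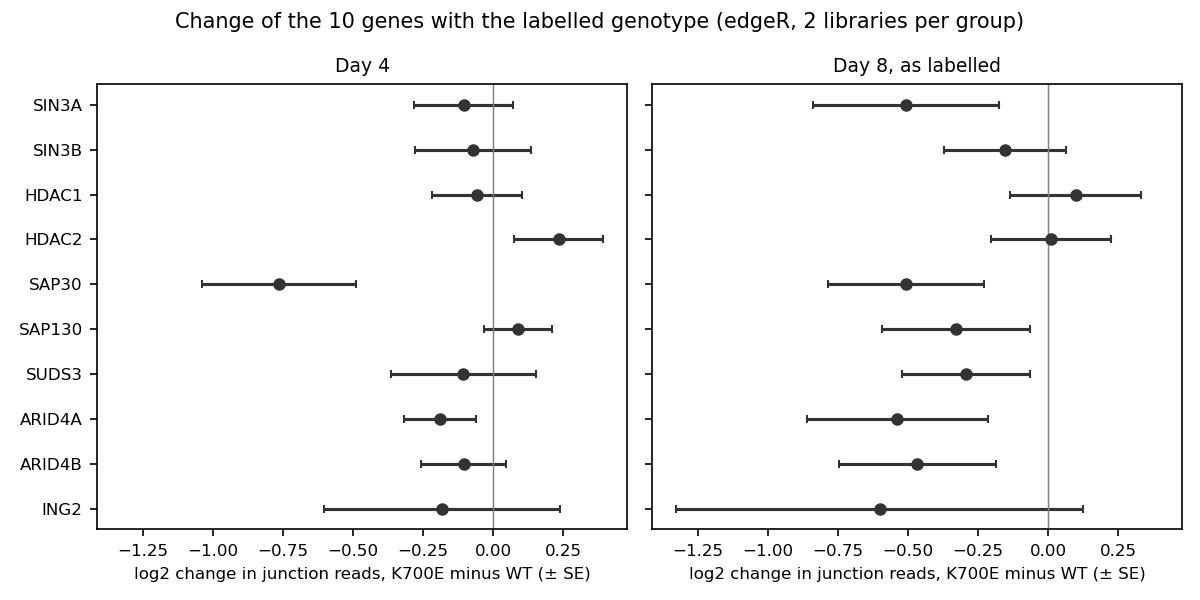
Log2 difference of each gene, K700E minus WT, with its standard error (horizontal axis; 1 row per gene), at day 4 on the left and day 8 as labelled on the right. At day 4 the SAP30 estimate of -0.76 stands apart from the other 9, which lie between -0.19 and 0.23, and at day 8 the error bars are wider for most genes.

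Related genes gave the same count. Among 14 other SIN3-associated genes, 0 were called at day 4, with a median log2 difference of -0.09. The largest differences were in TET1, a 5-methylcytosine dioxygenase found with SIN3A, at -0.85 (adjusted p 0.0790 by edgeR), ING1 at -0.50, an H3K4 methyl reader like ING2, and RBBP7 at 0.43, a histone-binding subunit. TET1 had 31.1 and 33.6 CPM in K700E libraries and 61.5 and 56.8 CPM in WT libraries at day 4, yet 39.1 and 16.6 CPM in those labelled K700E and 19.4 and 20.7 CPM in those labelled WT at day 8. Of the 7 repressors and partners that recruit SIN3, 0 were called and all 7 had negative estimates at both days, with medians of -0.33 and -0.52. Estimates were negative in 7017 of all 14424 genes tested at day 4 and in 7071 of 14370 at day 8, where the labels were in doubt. MXI1, a MAX partner that opposes MYC, had 18.3 and 16.5 CPM in K700E libraries and 27.3 and 30.6 CPM in WT libraries at day 4, a log2 difference of -0.72 (adjusted p 0.123 by edgeR), and its relatives MXD1 and MXD4 had -0.93 and -0.75.

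Other deacetylase complexes had no call at day 4 either. Among those that share HDAC1 and HDAC2, this held for 10 NuRD genes (median log2 difference -0.03), 8 CoREST genes (-0.12) and 3 MiDAC genes (0.33). In the NCoR and SMRT complex, which is built on HDAC3, 6 of 7 genes could be tested and 0 were called (-0.0048). Their largest differences were -0.56 for PHF21A, the reader of unmethylated H3K4 in CoREST, 0.71 for CORO2A of the NCoR group, -0.54 for CDK2AP1 of NuRD and 0.47 for TRERF1 of MiDAC. Of 9 other histone deacetylases 0 were called, with -1.34 for HDAC11, -0.87 for HDAC5 and -0.50 for HDAC7. None of the 12 H3K4 methylation genes was called, KMT2C having the largest difference at -0.55, and none of the 10 acetyltransferases, KAT2B having the largest at -0.89 (adjusted p 0.0649 by edgeR). HDAC5, a class IIa deacetylase, had 85.9 and 70.3 CPM in K700E libraries and 152 and 135 CPM in WT libraries at day 4.

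Lineage markers differed between these libraries as well. Of 5 megakaryocyte markers 3 could be tested at day 4, and 1, ITGA2B, was called, and the list summed to 126 and 124 CPM in K700E libraries and 12.5 and 23.8 CPM in WT libraries, with PF4 and GP9 at or near 0. The 9 erythroid markers summed to 1625 and 986 CPM in K700E libraries and 2057 and 1660 CPM in WT libraries, with 0 called. The 5 lymphoid markers, nearly all PTPRC, summed to 2987 and 2015 CPM in K700E libraries and 1317 and 1552 CPM in WT libraries, the 6 epithelial ones to 679 and 484 CPM and to 860 and 977 CPM, and the 4 fibroblast ones to 8.05 and 6.27 CPM and to 9.80 and 7.62 CPM in the same order, with 0 called in any of the 3. Their part in the differences above was not tested.

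Between the days, 5 of the 10 members changed. In a contrast of day 8 against day 4, averaged over the genotypes and chosen after the values were seen, edgeR called 5360 of 15366 genes (34.9%), and of the members SIN3B was higher and HDAC2, SAP30, ARID4A and ARID4B were lower at day 8. Since the days were aligned in different runs and the day 8 labels were in doubt, day, run and label cannot be told apart here.

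ARID4A had 41.6 and 27.4 CPM in K700E and 56.7 and 40.5 CPM in WT libraries at day 8, against 67.9 to 83.1 CPM in the 4 libraries of day 4. Every day 8 library lay below every day 4 library, and the difference of -0.85 in log2 CPM (SE 0.18) had an adjusted p of 0.00990 by edgeR, called also with each library left out in turn. ARID4B stood at 97.0 and 79.9 CPM in K700E and 141 and 95.9 CPM in WT libraries at day 8, against 148 to 190 CPM at day 4, with a log2 difference of -0.74 (SE 0.16) and an adjusted p of 0.0117 by edgeR. HDAC2 was at 312 and 306 CPM in K700E and 265 and 330 CPM in WT libraries at day 8, against 424 to 575 CPM at day 4, a log2 difference of -0.65 (SE 0.13) with an adjusted p of 0.00871 by edgeR. HDAC1 differed by -0.08 (SE 0.14), and the ratio of HDAC2 to HDAC1 per major junction was 1.15 to 1.32 at day 8 and 1.52 to 1.99 at day 4.

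SAP30 was lower at day 8, by -0.80 in log2 (SE 0.19), with an adjusted p of 0.0173 by edgeR. SIN3B was at 58.9 and 71.0 CPM in K700E and 65.3 and 74.9 CPM in WT libraries at day 8, against 39.5 to 56.6 CPM at day 4, and its change was 0.54 (SE 0.15, adjusted p 0.0319 by edgeR). With 1 library left out the number of members called ranged from 2 to 5, not always the same members. ING2 was called as higher at day 8 only without WT day 8 replicate 2 (0.98, adjusted p 0.0493 by edgeR), where 36.8% of all genes were called. SIN3B was no longer called without WT day 4 replicate 2, either day 4 K700E library, WT day 8 replicate 2 or K700E day 8 replicate 2, and SAP30 without either WT day 4 library, K700E day 4 replicate 2 or K700E day 8 replicate 2. ARID4B was lost without WT day 4 replicate 1 or K700E day 4 replicate 1, and HDAC2 without WT day 4 replicate 2, where 2809 genes were called in all.

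**Figure D3:**
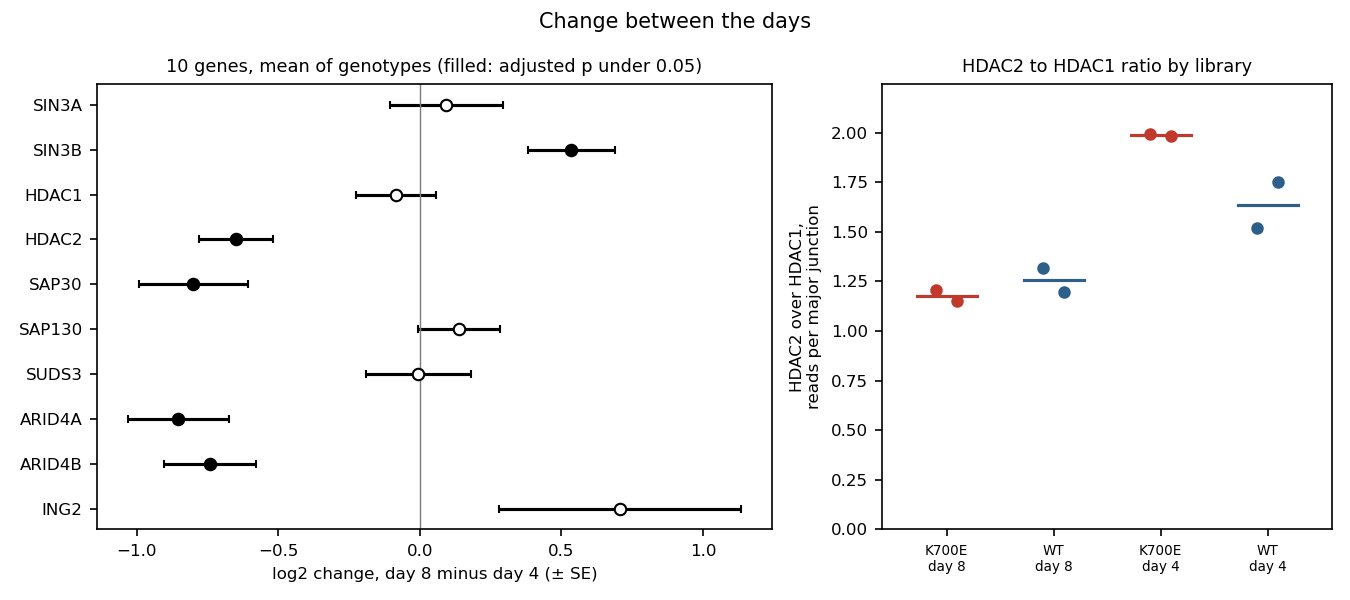
Left, log2 change of each gene at day 8 minus day 4, averaged over the genotypes, with its standard error; filled points have an adjusted p under 0.05. Right, the ratio of HDAC2 to HDAC1 in reads per major junction (vertical axis from 0), with points for libraries and lines for means, K700E in red and WT in blue; all 4 day 8 libraries lie at or below 1.32 and all 4 day 4 libraries at or above 1.52.

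Splice-site choice within the members was then compared. No member junction was called at day 4, with 0 of 65 for acceptor use (0.479% of 64322 junctions called) and 0 of 73 for donor use (0.035% of 59975), by edgeR's differential splicing test. A call needed an adjusted p below 0.05 and use that differed by 5 percentage points or more. At an unadjusted p under 0.05 there were 8 and 5 member junctions, where 7.17% and 5.81% of all junctions passed. Groups that did not overlap and differed by at least 2 points were found for 17 of 65 acceptor uses, against 27.5% of all junctions, and for 15 of 73 donor uses, against 26.4%. At day 8, 0 of 56 acceptor uses and 0 of 63 donor uses were called, as were 0.0% of all junctions in each, with 2 and 1 at an unadjusted p under 0.05, where 2.76% and 2.78% of all junctions passed. Groups apart by at least 2 points numbered 18 of 56 and 7 of 63, where all junctions had 24.7% and 25.3%. limma's test called no member junction at day 4.

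Exons that are skipped in part of the transcripts held the widest range among the members. Inclusion of a 98 nt SIN3A exon not inside the coding sequence (chr15:75436346-75436443) ran from 11.9% to 60%. By its other skipping junction it ran from 11.1% to 47.2%. These values rest on 13 to 106 skipping reads per library, and the exon is not printed. Reads into the exon numbered only 0 to 14 per library for the first range and 0 to 29 for the second, against 7 to 31 out of it. The value of 11.9% has no read into the exon, so these percentages may not measure skipping. The 4 coding exons whose inclusion ranged over at least 15 points across the libraries are printed here. They are from GENCODE release 29 transcripts, with hg38 coordinates, and the first and last 3 bases, which abut the acceptor and the donor, are in capitals.
ARID4B 258 nt exon, chr1:235213769-235214026, minus strand: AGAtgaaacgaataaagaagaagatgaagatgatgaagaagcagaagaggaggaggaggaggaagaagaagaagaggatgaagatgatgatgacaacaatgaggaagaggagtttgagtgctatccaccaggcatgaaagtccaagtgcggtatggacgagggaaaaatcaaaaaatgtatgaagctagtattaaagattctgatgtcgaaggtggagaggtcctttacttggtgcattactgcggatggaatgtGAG
SIN3B 96 nt exon, chr19:16862884-16862979, plus strand: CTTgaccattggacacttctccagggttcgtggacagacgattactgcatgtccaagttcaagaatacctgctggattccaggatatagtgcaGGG
SAP130 105 nt exon, chr2:127977985-127978089, minus strand: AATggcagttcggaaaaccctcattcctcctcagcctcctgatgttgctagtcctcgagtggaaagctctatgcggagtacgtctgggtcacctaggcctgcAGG
ARID4A 98 nt exon, chr14:58347020-58347117, plus strand: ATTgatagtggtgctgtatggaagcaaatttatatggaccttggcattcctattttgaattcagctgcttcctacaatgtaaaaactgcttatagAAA
The ARID4B, SIN3B and SAP130 exons have lengths divisible by 3 and can be skipped without a shift of the reading frame, while skipping of the ARID4A exon shifts it. The ARID4B exon is 72.1% purine on its coding strand, with an unbroken purine run of 36 bases, against 46.7% to 51.0% in the other 3.

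The ARID4B 258 nt exon was included in 74.5% and 74.7% of transcripts in K700E libraries and 79.9% and 86.4% in WT libraries at day 4. The K700E values lay below both WT values. At day 8 the order was the opposite, with 86.0% and 90.1% in the libraries labelled K700E and 82.8% and 75.7% in those labelled WT, also without overlap. The junction that skips it took 22.7% and 21.9% of reads at its donor in K700E libraries and 17.3% and 10.6% in WT libraries at day 4, a difference of 8.29 points (unadjusted p 0.0518, adjusted p 0.711 by edgeR). Inclusion itself was not tested.

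A second ARID4B exon, of 114 nt (chr1:235181071-235181184), is annotated in a noncoding transcript. Its inclusion was 10.2% and 8.48% in K700E libraries and 17.3% and 16.2% in WT libraries at day 4, without overlap, and 9.39% and 5.21% in K700E and 3.10% and 10.2% in WT as labelled at day 8. The ARID4A 98 nt exon was included in 98.0% and 96.5% in K700E libraries and 93.0% and 91.1% in WT libraries at day 4, which did not overlap, and in 100% and 96.4% in K700E and 100% and 79.7% in WT as labelled at day 8. An unannotated 132 nt exon further along ARID4A (chr14:58351545-58351676) was included in 8.03% and 7.45% in K700E libraries and 12.2% and 18.6% in WT libraries at day 4. Its acceptor junction gave an adjusted p of 0.812 by edgeR.

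In SIN3B and SAP130 the spread within a group exceeded the genotype difference. The SIN3B 96 nt exon was included in 65.4% and 35.7% in K700E libraries and 56.5% and 61.8% in WT libraries at day 4, and in 40.1% and 31.9% in K700E and 50% and 25.2% in WT as labelled at day 8. Its upstream junction is shared with unannotated forms of 141, 223 and 479 nt, so these percentages include such forms in part. That junction had more reads than the downstream one in every library, as with 125 against 54 in WT day 4 replicate 1. The SAP130 105 nt exon was included in 55.9% and 68.1% in K700E libraries and 67.0% and 67.3% in WT libraries at day 4. At day 8 it was at 77.9% and 80.3% in K700E and 67.6% and 77.3% in WT as labelled, without overlap. A 93 nt coding exon of HDAC1 was included in 92.7% to 96.7% over the 4 day 8 libraries and 83.6% to 90.9% over the 4 day 4 libraries. The genotypes overlapped at day 4. They did not at day 8, with 92.7% and 93.2% in K700E and 93.7% and 96.7% in WT as labelled.

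**Figure D4:**
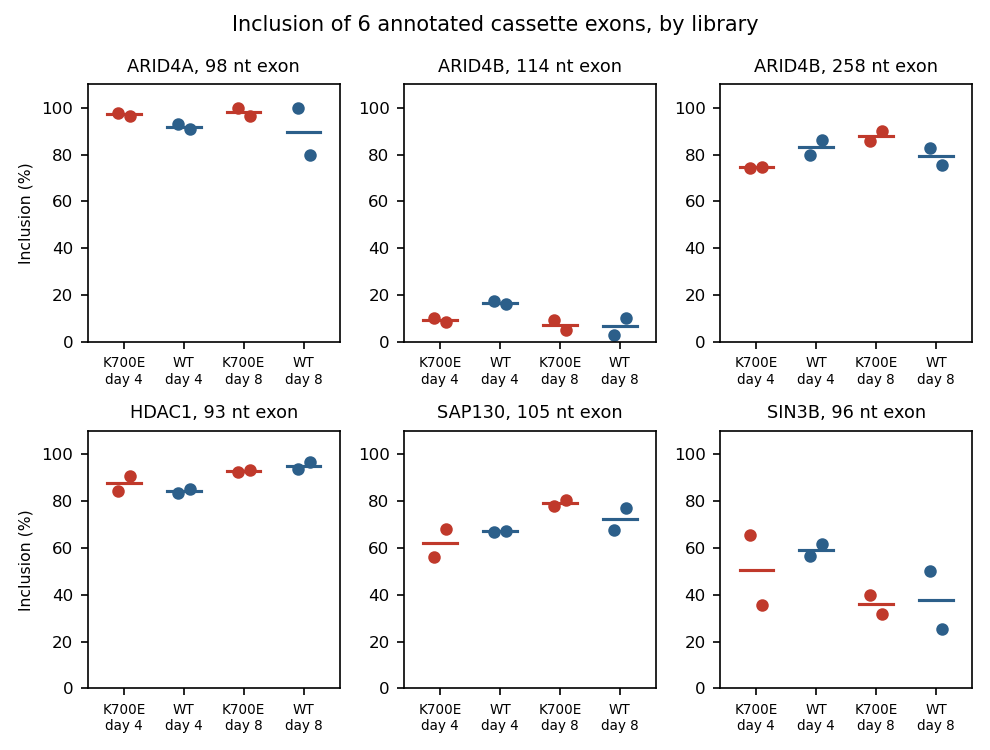
Inclusion in percent (vertical axis from 0) of 6 annotated exons, from the 2 junctions that include and the 1 that skips each; points are libraries and lines means, K700E in red and WT in blue. The ARID4B 258 nt exon has K700E below WT at day 4 and above it at day 8, and the SIN3B exon ranges from 25.2% to 65.4%.

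Differences were also seen at other sites, none with an adjusted p under 0.05. At the 5′ end of SAP130 (acceptor next to chr2:128026299), the donor at 128027091 lies downstream of the main donor. It was used by 11.6% and 2.22% of 69 and 45 reads in K700E libraries at day 4. In WT libraries at day 4 it took 22.9% and 19.2% of 48 and 52 reads. In SIN3A the junction that skips a 177 nt coding exon took 1.65% and 1.35% of reads at its donor in K700E libraries and 4.00% and 4.86% in WT libraries at day 4. SIN3B had an unannotated acceptor at chr19:16865413, 4 nt downstream of the main one. It took no read of 190 and 1.10% of 182 in K700E libraries, where 0 of 190 allows up to 1.58% (3 counts), and 3.49% and 5.80% in WT libraries at day 4 (unadjusted p 0.0338, adjusted p 0.580 by edgeR). In SUDS3 an unannotated donor at chr12:118381835 took 5.46% and 5.38% in K700E libraries and 2.47% and 2.08% in WT libraries.

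Acceptors 10 to 30 nt upstream of the main acceptor, the kind that K700E is known for, took few reads in these genes. Over 177 donors of the members 28 such acceptors were read, 1 of them annotated. Over 193656 donors of all genes 14458 were read, 842 of them annotated. Per donor they were thus not fewer in the members, with no adjustment for read depth. Only 2 in the members had enough reads to be tested, and neither was called. In all genes 141 of 1513 tested (9.32%) were called with higher use in K700E at day 4, and 2 tests are too few for a comparison. Summed over the members they took 0.0348% and 0.0550% of reads in K700E libraries and 0.0222% and 0.0217% in WT libraries at day 4. The same sums over all genes were 0.0852% and 0.0736% in K700E libraries and 0.0445% and 0.0372% in WT libraries. At day 8 the members gave 0.0295% and 0.0473% in the libraries labelled K700E and 0 and 0.0890% in those labelled WT. By counting alone, 0 of 86293 reads allows up to 0.00348%. That library, WT day 8 replicate 1, listed the fewest unannotated junctions (59658), and all genes in it gave 0.0360%. The limit does not cover junctions missing from its list.

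The highest counts were at 4 of these sites. SIN3A had one 15 nt upstream (chr15:75381721), used by 1.17% (0.429% to 2.52%) and 2.68% (1.47% to 4.45%) in K700E libraries and 0.642% (0.133% to 1.87%) and 1.25% (0.460% to 2.7%) in WT libraries at day 4. These and the following ranges are exact Clopper-Pearson 95% intervals, which cover counting error only. ARID4A had one 19 nt upstream (chr14:58351053) with 1.81% (0.589% to 4.16%) and 3.59% (1.65% to 6.70%) in K700E libraries and no read of 251 and 316 in WT libraries, for which 3 counts, the limit used here for a count of 0 in place of an interval, come to 1.20% and 0.949%. At day 8 it had no read in any library, with 49 to 146 reads at its donor. HDAC2 had one 24 nt upstream (chr6:113956176) with 0.0424% and 0.654% in K700E libraries and 0.187% and 0.0928% in WT libraries at day 4, so the K700E libraries lay on both sides of WT. ARID4B had one 14 nt upstream (chr1:235172779) with 1.52% in each K700E library and 0.330% and 1.05% in WT libraries at day 4. Its highest value, 9.25% (5.38% to 14.6%), was in the library labelled WT day 8 replicate 2. The other day 8 libraries had 2.24% and 1.04% (K700E replicates 1 and 2) and no read of 315 (WT replicate 1).

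**Figure D5:**
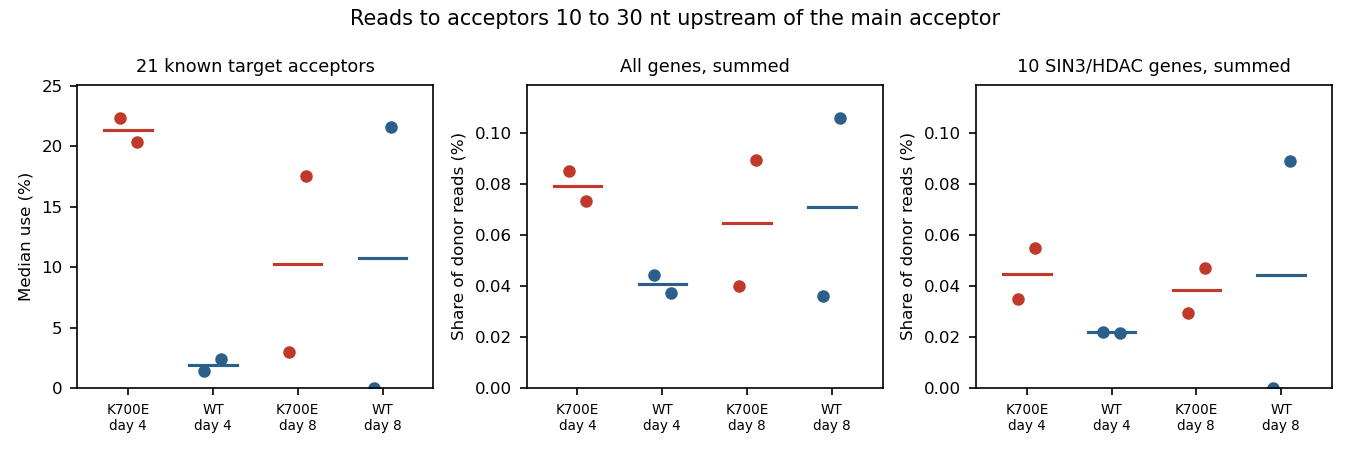
Use of acceptors 10 to 30 nt upstream of the main one, in percent (vertical axes from 0). The panels give the median over 21 known target genes, each at its most-read such acceptor, the share of donor reads over all genes, and the same share over the 10 genes. K700E in red lies above WT in blue at day 4 in each panel, and at day 8 the library labelled WT with 21.6% in the first panel is also the highest in the other panels.

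The share of reads on alternative junctions, those that are not the most used at both their donor and their acceptor, was low in most members. Over the 8 libraries it ran from 0.156% to 0.332% in HDAC2 and from 1.12% to 2.40% in SIN3A, and it was highest among the well-read members in SIN3B, from 4.57% to 8.40%. limma called 0 of the 10 at day 4 and 0 of 11890 genes (0.0%), with 1 member and 11.1% of all genes at an unadjusted p under 0.05. The groups did not overlap in 7 of the 10, against 43.6% of all genes, and 6 of these had lower shares in K700E, as 27.3% of all genes did. The day 4 estimate was negative in 7 members and in 58.6% of all genes.

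ARID4A was the member with an unadjusted p under 0.05. Its share was 2.30% and 2.13% in K700E libraries and 3.08% and 4.47% in WT libraries at day 4, a difference of -0.76 in log2 odds (SE 0.25, p 0.0293, adjusted p 0.415 by limma). HDAC1 had 1.42% and 0.908% in K700E libraries and 1.83% and 1.51% in WT libraries, and HDAC2 0.233% and 0.239% in K700E libraries and 0.282% and 0.332% in WT libraries. At day 8, 0 of 12041 genes (0.0%) were called by limma, with 1 member and 4.58% of all genes at an unadjusted p under 0.05. The day 8 groups did not overlap in 6 members, 2 with lower shares in K700E, against 33.1% and 13.2% of all genes. The member with the low p was SAP30 (adjusted p 0.954 by limma). It had 1.74% and 4.50% in the libraries labelled K700E, against no read of 1171 and 0.322% in those labelled WT. By counting alone, 0 of 1171 allows up to 0.256%. All alternative reads of SAP30 were on unannotated junctions. Of these junctions the 2 day 8 WT libraries listed 59658 and 109898 over all genes, against 184987 to 270357 in the other libraries. That library difference cannot be told apart from genotype here.

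SIN3A did not track the other members across libraries. The genes whose log2 CPM was most like its own over the 8 libraries, among 15365, were DDX58 (Pearson r 0.99), TMEM176A and TMEM176B (0.96 each), SCMH1 (0.96) and ZNF443 (0.95). Its r with the other 9 members ran from -0.17 for HDAC1 to 0.47 for ING2. These values describe 8 libraries that share days, runs and depth, and carry no test.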

How the data were processed

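Total RNA of K562 cells was sequenced as stranded libraries (dUTP protocol), per the labels' protocols. The submitters' processing notes name cutadapt, STAR and the build hg38. Per the file headers, STAR 2.7.0e was run end to end with GENCODE release 29 in the index and release 22 added at mapping. The deposited values are raw counts per splice junction, with unique and multi-mapped reads in separate columns.

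Unique counts were assigned to genes by GENCODE release 29 introns, or by a known donor or acceptor of 1 gene; 95.2% to 95.6% of unique reads were assigned. Introns shared by several genes, 3.97% to 4.39% of unique reads, were left out, which for ARID4B removed introns it shares with RBM34 in a read-through transcript. Counts per gene were fitted with edgeR 4.0.16 (R 4.3.3) by its quasi-likelihood test after its default expression filter, with TMM factors; CPM values use these factors. Each day was fitted on its own 4 libraries, and the mean of both days, the interaction and the day contrast on all 8. Junction use, the share of reads at a shared donor (acceptor use) or acceptor (donor use), was tested with diffSpliceDGE of edgeR for junctions with at least 5 reads in 2 libraries and a mean of 20 at the site. The alternative share was tested with limma 3.58.1 on log2 odds with 0.5 added, for genes with a mean of at least 50 reads. The scripts were tested on simulated data. Alternatives were DESeq2 1.42.0, other scaling, filters, read sets, a replicate block and each library left out.

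Named member junctions were those called, and up to 3 per member with the largest day 4 difference among those without overlap and at least 2 points apart. The exons printed were coding ones whose inclusion ranged over at least 15 points, and SIN3A's most similar genes were the 5 of highest correlation. The members and gene lists were chosen with earlier results of these data known, and the day contrast and exon tables after the values were seen. Genes of the lists were named by the largest day 4 difference. The number of junction reads limits the precision, and PCR copies are counted since no molecular identifiers were given.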

Additional observations from a re-analysis of the deposited data

Results flagged for a closer look

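Several member values had both K700E libraries on one side of both WT libraries at day 4 and on the other side at day 8. The difference between the days was not tested for any of them, and each group had 2 libraries. How many of all genes, exons or junctions have this pattern was not counted. Groups without overlap at a single day were common, as in the alternative share of 43.6% of all genes at day 4 and 33.1% at day 8. Upstream acceptor use in the known target genes did not follow the day 8 labels. Inclusion of the ARID4B 258 nt exon differed by -8.52 points (K700E minus WT) at day 4 and by 8.83 points at day 8, and use of the junction that skips it (chr1, 235196116 to 235219792) by 8.29 and -6.10 points. Use of the SAP130 donor at 128027091 differed by -14.2 points at day 4 and 9.33 points at day 8. Inclusion of the SUDS3 56 nt exon, which had 0 to 8 skipping reads per library, differed by 1.72 and -0.93 points. Use of the SIN3A junction from 75422824 to 75430186 differed by 4.64 and -2.91 points. The alternative share differed by -0.20 and 0.44 points in SIN3A, by -0.99 and 2.96 points in SAP30, and by -0.071 and 0.041 points in HDAC2, at day 4 and day 8 in that order. In SAP30 the alternative reads were all on unannotated junctions, of which both day 8 WT libraries listed the fewest.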

How the results depend on the processing

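The day 4 count of genes called, 81, was 1667 by DESeq2, 1940 without an expression filter, 191 with a replicate block, 0 in the 8-library model and 0 to 2527 with 1 library left out; members called were 1 (SAP30) without the filter and 0 to 1 with 1 library left out. In such fits of 1 day a genotype is left with 1 library, which is assumed to vary like the other pair. At day 8 DESeq2 called 28 genes. The day contrast called 2809 to 6032 genes and 2 to 5 members with 1 library left out. Acceptor uses called at day 4, 308, ranged from 17 to 123, and donor uses, 21, were 47 with stricter read minimums, 79 by limma, 10 with a replicate block and 0 to 57 with 1 library left out. No other such count moved by more than 1.5 times. The replicate numbers share only a label: deviations of same-numbered libraries correlated at 0.0933 at day 4 and 0.241 at day 8, and the block changed no call of a member.

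Member estimates near 0 changed sign, and the cause was not tested. HDAC2 at day 8 was -5.02e-05 with multi-mapped reads, SUDS3 in the day contrast 0.0094 with the block, and with alternative taken as unannotated the share differences of SIN3B and SUDS3 were -0.39 and -0.018. With 1 library left out, the log2 difference at day 4 ranged from -0.35 to 0.095 for SIN3A, -0.31 to 0.21 for SIN3B, -0.55 to 0.22 for SUDS3, -0.26 to 0.11 for HDAC1, -0.25 to 0.014 for ARID4B and -0.40 to 0.059 for ING2. At day 8 it ranged from -0.090 to 0.34 for HDAC1, -0.12 to 0.18 for HDAC2 and -1.16 to 0.38 for ING2. The mean of both days ranged from -0.21 to 0.049 for SIN3B, -0.26 to 0.032 for SAP130, -0.065 to 0.16 for HDAC1 and -0.65 to 0.11 for ING2. The interaction ranged from -0.79 to 0.026 for SIN3A, -0.38 to 0.15 for SIN3B, -0.065 to 0.71 for SAP30, -0.54 to 0.31 for SUDS3, -0.033 to 0.47 for HDAC1, -0.41 to 0.036 for HDAC2, -0.54 to 0.018 for ARID4B and -0.91 to 0.61 for ING2. The day contrast ranged from -0.15 to 0.26 for SIN3A, -0.032 to 0.26 for SAP130, -0.16 to 0.20 for SUDS3 and -0.21 to 0.010 for HDAC1, and the share difference at day 4 from -0.60 to 0.21 for SAP130 and -0.55 to 0.55 for SUDS3.
Depth limits ING2 (4 junctions, 751 reads in all) most.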
